A study of Mus musculus with 8 samples.

Results

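The genes described here are the Toll-like receptors Tlr1, Tlr2, Tlr3, Tlr4, Tlr7 and Tlr9, the adaptor Myd88, the kinases Irak1 and Irak4 and the ubiquitin ligase Traf6. They were taken by symbol from the deposited count table, and 10 of the 10 were found among its 23171 genes. RNA came from the epidermis of mice in 2 groups, 4 libraries each. The cKO group carries an epidermis-specific knockout of Hnrnpu, a nuclear RNA-binding protein, and the WT group is the control. Mice of both groups received imiquimod, an agonist of Tlr7 that is used to model psoriasis, so no library shows these genes without the drug. The labels name keratinocytes as the cell type and 1 batch. The Cre line, strain, age, dose and days of treatment are not stated in the labels.

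Toll-like receptors are membrane proteins that recognise microbial molecules. Tlr1, Tlr2 and Tlr4 sit at the cell surface and bind bacterial lipids, whereas Tlr3, Tlr7 and Tlr9 sit in endosomes and bind nucleic acids. Apart from Tlr3, which signals through the adaptor Ticam1, the receptors listed here recruit Myd88. Myd88 assembles with Irak4 and Irak1 and hands the signal to Traf6, whose ubiquitin chains activate NF-κB and MAP kinases. Receptors of the IL-1 family use the same Myd88 route, which keratinocytes employ for IL-1 and IL-36. In skin, Tlr7 is known mainly from plasmacytoid dendritic cells, macrophages and B cells, and keratinocytes are known to carry Tlr3 and Tlr2.

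Libraries held 37158621 to 38865722 counts, so that 1 count was worth 0.0238 to 0.0280 CPM (counts scaled to library size, with TMM factors that correct for library composition). Hnrnpu itself was lowered only in part, with 190, 373, 355 and 312 CPM in cKO libraries 1 to 4 and 424 to 455 CPM in WT libraries (log2 fold change -0.51, edgeR quasi-likelihood adjusted p = 0.191). The 7 keratinocyte markers were all present and summed to 62649 to 88909 CPM in cKO and 71336 to 92948 CPM in WT. Nothing in the labels says that the 4 libraries of a genotype came from independent litters. The p-values set the genotype difference against the spread between these libraries. In bulk RNA, fewer cells of a type and less RNA per cell cannot be told apart.

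The sequences upstream of the genes that the results turn on are shown so that the transcripts can be tied to a place in the genome. They are the 250 bases before the start of Tlr3, Irak4, Myd88 and Tlr2. Tlr3 and Irak4 are the genes of the list whose genotypes did not overlap in TMM-scaled CPM. Myd88 is the shared adaptor, and Tlr2 is the most abundant Myd88-dependent receptor of the list. All sequences are from RefSeq on build GRCm38.p6, whereas the authors' build is not given. Tlr3 lies at chr8:45410381-45410630 on the minus strand, Irak4 at chr15:94543410-94543659 on the plus strand, Myd88 at chr9:119340019-119340268 on the minus strand and Tlr2 at chr3:83841609-83841858 on the minus strand. Capitals mark matches to an interferon-type element (GAAA, any 2 bases, GAAA), an AP-1 element (TGANTCA) or the NF-κB consensus, searched on both strands.
Tlr3: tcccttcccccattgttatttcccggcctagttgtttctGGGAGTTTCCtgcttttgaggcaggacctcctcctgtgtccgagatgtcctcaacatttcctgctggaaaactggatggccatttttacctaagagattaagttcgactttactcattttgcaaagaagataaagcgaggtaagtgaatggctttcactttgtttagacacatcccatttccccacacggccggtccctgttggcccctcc
Irak4: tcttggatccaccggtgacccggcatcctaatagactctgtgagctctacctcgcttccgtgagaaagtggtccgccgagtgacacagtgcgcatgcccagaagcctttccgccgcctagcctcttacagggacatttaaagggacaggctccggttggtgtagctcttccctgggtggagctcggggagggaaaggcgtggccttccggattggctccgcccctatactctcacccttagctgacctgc
Myd88: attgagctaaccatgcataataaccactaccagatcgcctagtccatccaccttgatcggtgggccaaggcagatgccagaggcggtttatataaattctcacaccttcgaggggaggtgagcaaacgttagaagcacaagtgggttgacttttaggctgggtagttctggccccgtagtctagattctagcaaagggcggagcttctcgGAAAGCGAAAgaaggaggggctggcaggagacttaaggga
Tlr2: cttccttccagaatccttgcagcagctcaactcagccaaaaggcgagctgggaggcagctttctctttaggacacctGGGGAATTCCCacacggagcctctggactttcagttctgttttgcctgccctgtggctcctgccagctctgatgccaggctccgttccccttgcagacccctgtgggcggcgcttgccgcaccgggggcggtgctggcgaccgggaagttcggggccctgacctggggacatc
The Tlr3 window held 1 NF-κB match, the Tlr2 window held 2 that overlap each other, the Myd88 window held 1 interferon-type match and the Irak4 window held none of the motifs. Of 32851 mouse windows of this length, 7.25% held the NF-κB consensus, 2.98% the interferon-type element and 6.75% the AP-1 element. A match is a run of letters and does not show that a factor binds there. RefSeq windows were matched for 8 of the 10 genes.

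Of the 10 genes, 9 passed the low-count filter and were tested, and none was called at an adjusted p below 0.05 by edgeR's quasi-likelihood test over 14004 genes. Across all tested genes 1.32% were called (94 higher in cKO, 0.671%, and 91 lower, 0.65%). Tlr3, Irak4 and Myd88 had an unadjusted p below 0.05 (3 of 9 genes, where 18.6% of all tested genes did). In TMM-scaled CPM, the cKO libraries lay wholly above the WT libraries for Tlr3 and wholly below them for Irak4. These were 2 of 9, where 11.1% of all tested genes showed such separation. DESeq2 called 2 of the 9, Tlr3 (adjusted p = 0.00202) and Irak4 (adjusted p = 0.0102), against 8.63% of all genes, and limma-voom called none of the 9. All tested genes had a median log2 fold change of 0.01, and 48.1% of them were negative. The 9 genes had 1 positive and 8 negative log2 fold changes with a median of -0.32. That median is not evidence about the list and is given as a description only. Tlr7 and Tlr9 reached the filter mainly through WT libraries. Tlr7 met the cut-off of 10 counts in a library of median size in 1 cKO and 4 WT libraries, and Tlr9 in 1 cKO and 3 WT libraries. The other negative genes, Tlr2, Tlr4, Myd88, Irak1, Irak4 and Traf6, met it in 4 cKO and 4 WT libraries, as did Tlr3.

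**Figure D1:**
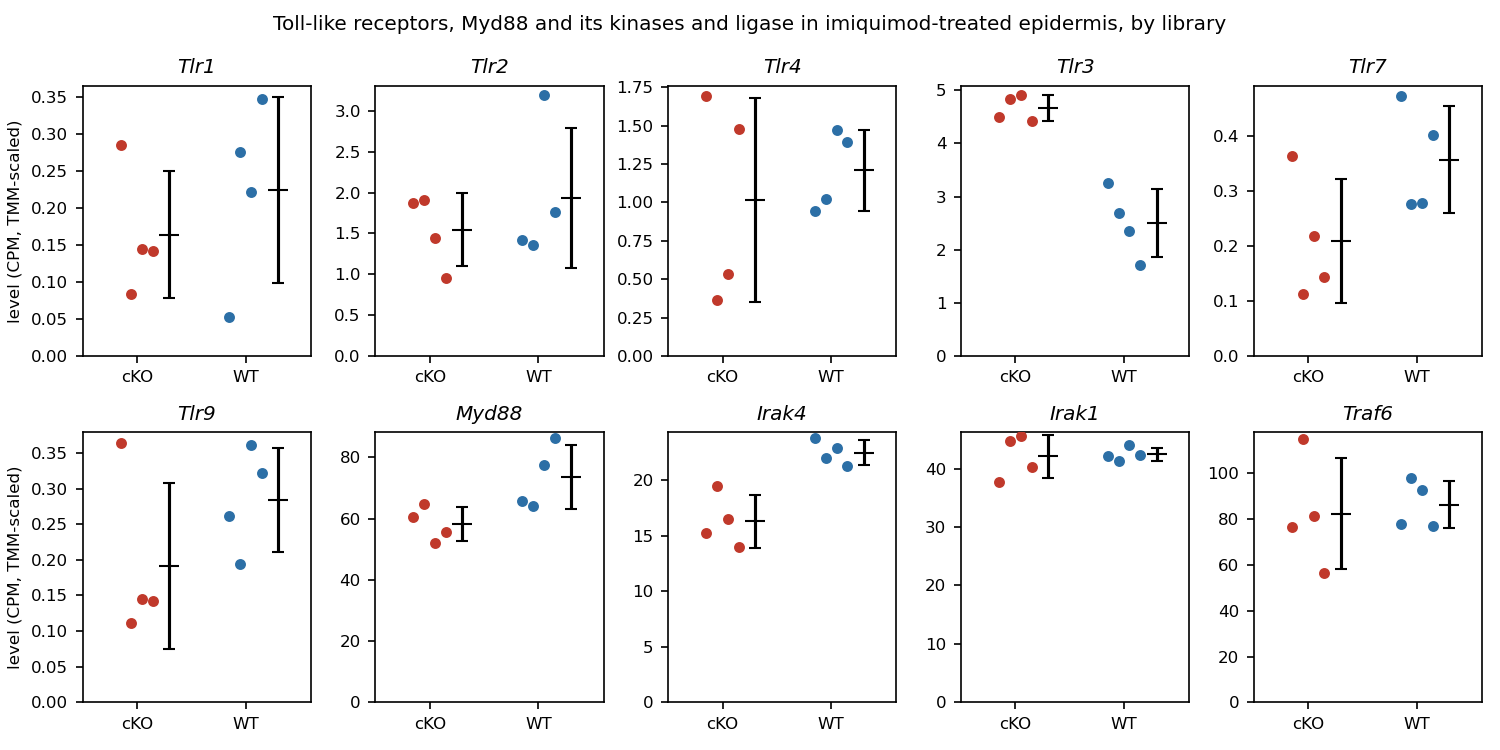
Levels of the 10 genes by library in CPM scaled with TMM factors, on linear axes that start at 0, with cKO libraries in red, WT libraries in blue and the mean ± SD in black (n = 4 each). Only Tlr3 (4.43 to 4.92 CPM in cKO, 1.71 to 3.25 CPM in WT) and Irak4 (13.97 to 19.5 CPM in cKO, 21.3 to 23.8 CPM in WT) have genotypes that do not overlap among the 10 genes.

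Per transcript length, the signalling genes stood far above the receptors. Myd88 was the most abundant, at 30.6 ± 1.26 FPKM (counts scaled by gene length and library total) in cKO and 37.1 ± 4.98 FPKM in WT (SD, n = 4 each). Traf6 followed with 13.4 ± 3.14 FPKM in cKO and 13.6 ± 1.49 FPKM in WT, then Irak1 with 10.9 ± 1.15 FPKM in cKO and 10.5 ± 0.262 FPKM in WT. Traf6 and Irak1 overlapped in cKO libraries and did not in WT libraries. Irak4 stood below them at 5.14 ± 0.499 FPKM in cKO and 6.84 ± 0.429 FPKM in WT, overlapping with no neighbour in either genotype.

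Among the receptors of the list, Tlr3 and Tlr2 led, and their order was not the same in both genotypes. Tlr3 had 0.943 ± 0.0702 FPKM in cKO and 0.485 ± 0.132 FPKM in WT, and Tlr2 had 0.473 ± 0.115 FPKM in cKO and 0.570 ± 0.243 FPKM in WT. Tlr3 was above Tlr2 without overlap in cKO libraries, whereas the 2 receptors overlapped in WT libraries. Tlr4 came next in the list with 0.125 ± 0.0827 FPKM in cKO and 0.140 ± 0.0284 FPKM in WT, and it overlapped with Tlr9 in cKO libraries and not in WT libraries. Outside the list, Tlr5 (0.254 FPKM in cKO, 0.278 FPKM in WT) and Tlr13 (0.223 FPKM in cKO, 0.225 FPKM in WT) had higher means than Tlr4. Tlr9, Tlr1 and Tlr7 followed at 0.0561 ± 0.0334, 0.0519 ± 0.0267 and 0.0388 ± 0.0206 FPKM in cKO and 0.0801 ± 0.0197, 0.0673 ± 0.0376 and 0.0634 ± 0.0185 FPKM in WT, and these 3 overlapped with one another in that order in both genotypes. Conversion of FPKM to TPM left the order of the 10 genes as it was in each genotype.

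Tlr7, the receptor that senses imiquimod, was close to the limit of detection. It had 14, 4, 9 and 6 counts in cKO libraries 1 to 4, against 18, 10, 10 and 15 counts in WT libraries 1 to 4. cKO library 1 lay within the WT range and the other 3 cKO libraries lay below it. Means were 0.209 ± 0.112 CPM for cKO and 0.357 ± 0.0965 CPM for WT (SD, n = 4 each), and the log2 fold change was -0.76 ± 0.45 (SE, edgeR adjusted p = 0.400, exact two-sided permutation p = 0.114). Its 95% confidence interval runs from 29.2% to 119% of the WT level, so a difference was not detectable at this depth. Counting error alone would give a coefficient of variation of 34.8% in cKO and 27.5% in WT, against observed values of 53.8% in cKO and 27.04% in WT. Leaving out single libraries gave log2 fold changes of -1.15 to -0.55 for Tlr7.

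Markers of the blood-derived cells in which Tlr7 is best known were present beside it, mostly at low levels. The 10 macrophage and monocyte markers, none of which was at 0 in all libraries or called, summed to 38.6 to 88.9 CPM in cKO and 52.6 to 89.3 CPM in WT. Siglech, a defining receptor of plasmacytoid dendritic cells, had 3 to 9 counts in cKO libraries and 2 to 7 counts in WT libraries. The other 6 markers of that list were measured too, but its summed level (1343 to 1956 CPM in cKO, 2125 to 2556 CPM in WT) was nearly all Ly6d (1318 to 1928 CPM in cKO, 2101 to 2530 CPM in WT). That sum therefore describes Ly6d and not the list. Tcf4 leaned the other way, averaging 21.8 CPM for cKO against 15.8 CPM for WT, and its genotypes were fully apart. Mean levels for cKO and WT were 5.42 and 6.30 CPM for Ccr9, and 2.29 and 2.26 CPM for Bst2. Cox6a2 and Pacsin1 had at most 6 counts in any library. Of this list 4 markers were tested and 0 called. The 4 B cell markers in the table summed to 0.832 to 1.38 CPM in cKO and 0.990 to 1.42 CPM in WT, and 3 of them had at most 10 counts in every library. The part of these cells in the Tlr7 values was not tested.

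By root-mean-square difference of centred log2 CPM over the 8 libraries, the tested genes most like Tlr7 were Fcer1g (0.16), Sting1 (0.22) and Unc93b1 (0.25), where Tlr7 itself varied with an SD of 0.58. Fcer1g stood at 5.12, 1.74, 3.40 and 2.16 CPM in cKO libraries 1 to 4 and at 4.93, 3.57, 3.11 and 5.65 CPM in WT libraries 1 to 4. As for Tlr7, cKO library 1 was the highest and cKO library 2 the lowest of the cKO group. The highest WT library differed, being WT library 1 for Tlr7 and WT library 4 for Fcer1g. With so few Tlr7 counts the likeness of these genes to Tlr7 is a description of these libraries.

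Tlr9, the endosomal receptor for DNA with unmethylated CpG, had 14, 4, 6 and 6 counts in cKO libraries 1 to 4, against 10, 7, 13 and 12 counts in WT libraries 1 to 4. Means were 0.191 ± 0.116 CPM for cKO and 0.284 ± 0.0730 CPM for WT, and cKO library 1 stood at the top of all 8. The log2 fold change was -0.57 ± 0.47 (SE, edgeR adjusted p = 0.558), with a range of -1.06 without cKO replicate 1 to -0.37 without cKO replicate 2 when single libraries were left out.

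Tlr3, the endosomal receptor for double-stranded RNA and the one receptor here that bypasses Myd88, had 173, 173, 204 and 186 counts in cKO libraries 1 to 4. WT libraries 1 to 4 had 124, 97, 85 and 64 counts. Every cKO library was above every WT library, and the cKO libraries lay within a narrow band. Mean levels were 4.67 ± 0.247 CPM for cKO and 2.50 ± 0.642 CPM for WT (SD, n = 4 each). The fitted ratio was 1.87 with a 95% confidence interval of 1.32 to 2.63. The log2 fold change of 0.90 ± 0.22 (SE) did not pass over all genes by edgeR (adjusted p = 0.0753). An exact two-sided permutation test gave p = 0.0286, which is its lower limit with 4 libraries a genotype. The spread of the cKO libraries, 5.29%, was below the 7.37% that counting error alone would give, while the WT libraries varied by 25.7%, above the 10.4% of counting error.

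The direction of Tlr3 was positive in all 18 alternative fits, with adjusted p-values from 0.00202 to 0.170. Because the genotypes did not overlap, refits of the same libraries could hardly turn this sign. DESeq2 was the 1 fit of the 18 that called it. Of 6 hair follicle markers, Krt75, Krt79 and Lgr6 were called, all higher in cKO (3 of 6, where 1.32% of all tested genes were called in either direction), and Lgr5, Sox9 and Krt15 did not pass. The 6 summed to 2979 to 4559 CPM in cKO libraries and 1382 to 2273 CPM in WT libraries, and most of the sum was Krt79. The 6 melanocyte markers summed to 59.7 to 118 CPM in cKO and 34.3 to 52.2 CPM in WT, with 1 of 6 called. The 6 sebocyte markers, 1 of 6 called, summed to 788 to 2851 CPM in cKO and 574 to 1050 CPM in WT, with overlap. Of these, 5 were positive and Mgst1 was negative (log2 fold change -0.30). The follicle, melanocyte and sebocyte lists are given because they leaned up in cKO, as Tlr3 did. By library they did not all follow Tlr3. WT library 4, the lowest in Tlr3 (1.71 CPM), had the highest WT sebocyte sum (1050 CPM). WT library 1, the highest WT library in Tlr3 (3.25 CPM), had the lowest melanocyte sum (34.3 CPM). The follicle sums of the WT libraries ranked as Tlr3 did. Langerhans cell markers leaned up too (6 positive, 1 negative, 0 called), with sums that overlapped (340 to 903 CPM in cKO, 380 to 503 CPM in WT). None of these markers was at 0 in all libraries, and their part in the Tlr3 difference was not tested.

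Genes most like Tlr3 over the 8 libraries were looked up after its values were seen. They were Tspyl3 (root-mean-square difference of centred log2 CPM 0.15), Krt79, a keratin of the follicle infundibulum (0.16), and the fatty aldehyde dehydrogenase gene Aldh3a2 (0.16), where Tlr3 varied with an SD of 0.55. Krt79 rose in cKO, at 2763 ± 365 CPM for cKO and 1432 ± 232 CPM for WT (log2 fold change 0.95, edgeR adjusted p = 0.0301). Tspyl3 averaged 1.88 ± 0.194 CPM for cKO and 0.930 ± 0.316 CPM for WT and did not pass (edgeR adjusted p = 0.108). Aldh3a2 rose too, at 38.4 ± 6.63 CPM for cKO and 19.9 ± 4.12 CPM for WT (log2 fold change 0.94, edgeR adjusted p = 0.0388). As these genes were picked for their likeness to Tlr3, their genotype differences are no separate result. An antisense gene model, Gm45542, overlaps Tlr3 in GENCODE M21. Gm45542 was not analysed here, and the strand setting of the counting is not given, so reads from it cannot be told apart from Tlr3.

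As a share of all Toll-like receptor FPKM, Tlr3 made up 43.4 ± 6.76% in cKO and 24.6 ± 5.59% in WT (SD, n = 4 each, 12 receptors). The share ran from 34.04% to 48.6% in cKO libraries and from 19.1% to 30.7% in WT libraries, and the genotypes did not overlap. This share was chosen after the values of Tlr3 were seen and contains them. The FPKM sum of the other 11 receptors was 1.27 ± 0.362 in cKO and 1.47 ± 0.162 in WT, and the genotypes overlapped.

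**Figure D2:**
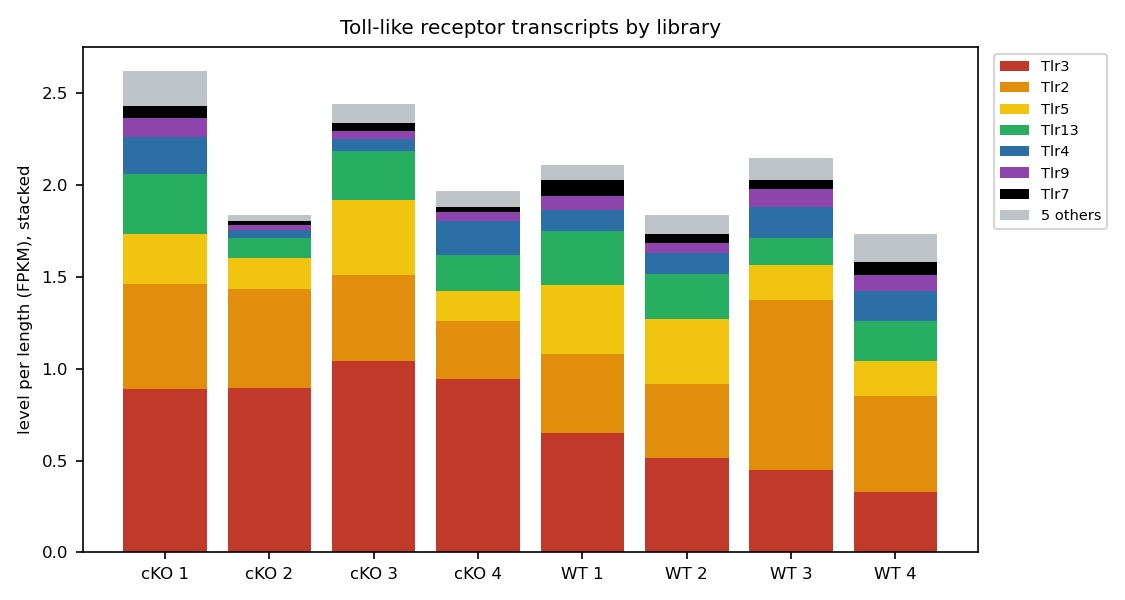
Stacked deposited FPKM values of the 12 Toll-like receptor genes in each library, cKO libraries on the left and WT libraries on the right, with linear axis from 0. The red segment, Tlr3, covers 34.04% to 48.6% of the bar in cKO libraries and 19.1% to 30.7% in WT libraries, and the black segment, Tlr7, is thin in all 8.

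Tlr2, which pairs with Tlr1 or Tlr6 to bind bacterial lipoproteins, had 1.87, 1.90, 1.45 and 0.952 CPM in cKO libraries 1 to 4, against 1.42, 1.35, 3.19 and 1.77 CPM in WT libraries 1 to 4. The genotypes overlapped, and WT library 3 stood above all others. The log2 fold change was -0.32 ± 0.36 (SE, edgeR adjusted p = 0.676) and 0.026 without WT replicate 3. Its 95% confidence interval, 45.6% to 140% of the WT level, spans changes in both directions. The genes most like it were Slc28a3 (root-mean-square difference 0.22), Ugcg (0.23) and Uchl4 (0.24), where Tlr2 varied with an SD of 0.49.

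Tlr1 had 11, 3, 6 and 6 counts in cKO libraries 1 to 4, against 2, 10, 8 and 13 counts in WT libraries 1 to 4. It was the 1 gene of the list removed by the count filter, and the genotypes overlapped (exact permutation p = 0.571). Tlr6, its close paralog, had 0.0941 CPM in cKO and 0.0817 CPM in WT on average. How reads matching both were assigned is not stated and was not tested, so the values of both are uncertain.

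Tlr4, the receptor for bacterial lipopolysaccharide, stood at 1.69, 0.364, 0.531 and 1.48 CPM in cKO libraries 1 to 4, against 0.944, 1.02, 1.47 and 1.39 CPM in WT libraries 1 to 4. Libraries 1 and 4 of the cKO group were above every WT library, and libraries 2 and 3 were below every WT library. The genotype means were 1.02 ± 0.665 CPM for cKO and 1.21 ± 0.263 CPM for WT, with a log2 fold change of -0.25 ± 0.49 (SE, edgeR adjusted p = 0.836) and of 0.049 without cKO replicate 2. The observed variation of 65.5% in cKO exceeded the counting error of 15.7%. The 7 neutrophil markers in the table summed to 6909, 1682, 1645 and 9519 CPM in cKO libraries 1 to 4 and to 4496, 3710, 14072 and 17123 CPM in WT libraries 1 to 4. Nearly all of that sum was S100a8 (763 to 3812 CPM in cKO, 1736 to 7429 CPM in WT) and S100a9 (691 to 5698 CPM in cKO, 1945 to 9657 CPM in WT), which inflamed keratinocytes are known to express too. The more neutrophil-restricted Csf3r had 17, 5, 0 and 12 counts in cKO libraries 1 to 4 and 5, 42, 14 and 17 counts in WT libraries 1 to 4. Retnlg had at most 4 counts in cKO libraries and 4 to 220 counts in WT libraries. The part of neutrophils in the Tlr4 values was not tested.

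Myd88, the adaptor shared by Toll-like and IL-1 receptors, stood at 60.4, 64.9, 51.9 and 55.8 CPM in cKO libraries 1 to 4, against 65.8, 64.3, 77.5 and 86.4 CPM in WT libraries 1 to 4. In CPM, only cKO library 2 reached into the WT range, and WT libraries 3 and 4 were the highest. This overlap depended on the scaling. In deposited FPKM the cKO libraries (28.7 to 31.3) lay wholly below the WT libraries (32.3 to 43.6). The mean of 58.2 ± 5.64 CPM in cKO was 79.3% of the 73.5 ± 10.4 CPM in WT, with a 95% confidence interval of 65.6% to 95.8%. The log2 fold change of -0.34 ± 0.12 (SE) did not pass (edgeR adjusted p = 0.187, exact permutation p = 0.0571), and it was negative in all 18 alternative fits, from -0.39 to -0.25. No alternative called it, with adjusted p-values from 0.122 to 0.404.

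The genes whose profile over the 8 libraries was most like that of Myd88 were Ap1g1 (root-mean-square difference 0.050), Csnk1a1 (0.060) and Farsa (0.063), where Myd88 varied with an SD of 0.24. Myd88 lies within the span of Slc22a14 on the same strand, which was not analysed here, and overlaps Acaa1a on the opposite strand in GENCODE M21. Acaa1a stood at 72.9 ± 17.8 CPM for cKO and 79.1 ± 3.16 CPM for WT (log2 fold change -0.12, edgeR adjusted p = 0.758).

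Irak4, the kinase that Myd88 engages directly, stood at 15.2, 19.5, 16.5 and 13.97 CPM in cKO libraries 1 to 4, against 23.8, 22.1, 22.9 and 21.3 CPM in WT libraries 1 to 4. Every cKO library was below every WT library. The mean of 16.3 ± 2.37 CPM in cKO was a fitted 72.4% of the 22.5 ± 1.09 CPM in WT, with a 95% confidence interval of 60.01% to 87.4%. The log2 fold change of -0.47 ± 0.12 (SE) did not pass over all genes by edgeR (adjusted p = 0.0853). The exact permutation test again gave its lower limit, p = 0.0286. The log2 fold change was negative in all 18 alternative fits, from -0.54 to -0.35, with adjusted p-values from 0.0102 to 0.179. As for Tlr3, refits of the same libraries could hardly turn the sign of genotypes that did not overlap. Irak4 was called by DESeq2 and by edgeR without cKO replicate 2 (adjusted p = 0.0374).

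Irak4 overlaps the tail-to-tail neighbour Twf1, an actin-binding protein gene, on the opposite strand. Twf1 stood at 225 ± 66.5 CPM for cKO and 320 ± 24.0 CPM for WT (log2 fold change -0.51 ± 0.18 SE, edgeR adjusted p = 0.186). Without a stated strand setting, reads from the stretch they share cannot be told apart, and the part of Twf1 in the Irak4 difference was not tested. The genes most like Irak4, looked up after its values were seen, were Cask (root-mean-square difference 0.079), Tmem165 (0.083) and Bcl11b (0.090), where Irak4 varied with an SD of 0.29. Cask, a scaffold kinase gene, fell to 69.7 ± 6.60 CPM in cKO, against 96.7 ± 1.59 CPM in WT (log2 fold change -0.47, edgeR adjusted p = 0.0417). Cask was picked for its likeness to Irak4, so its genotype difference is no separate result.

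Irak1, the kinase that acts after Irak4, stood at 37.8, 44.7, 45.6 and 40.3 CPM in cKO libraries 1 to 4, against 42.1, 41.2, 44.0 and 42.4 CPM in WT libraries 1 to 4. The WT libraries lay inside the range of the cKO libraries. The means were 42.1 ± 3.70 CPM for cKO and 42.4 ± 1.17 CPM for WT, and the log2 fold change was -0.01 ± 0.09 (SE, edgeR adjusted p = 0.962), turning to 0.050 with library-size scaling. The 95% confidence interval of 86.4% to 114% of the WT level bounds any difference. Relative to Irak4, Irak1 had an FPKM ratio of 2.12 ± 0.218 in cKO and 1.54 ± 0.0762 in WT. The genotypes did not overlap, but the ratio was chosen after the values of both kinases were seen and restates the Irak4 difference. The Myd88 to Irak4 ratio was 6.002 ± 0.727 in cKO and 5.46 ± 0.968 in WT, with overlap.

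Traf6, the ubiquitin ligase downstream of the kinases, stood at 76.7, 115, 81.4 and 56.3 CPM in cKO libraries 1 to 4, against 78.0, 97.9, 92.5 and 77.0 CPM in WT libraries 1 to 4. The cKO group held both the highest and the lowest of the 8 libraries. Its means were 82.3 ± 24.3 CPM for cKO and 86.3 ± 10.5 CPM for WT, with a log2 fold change of -0.07 ± 0.20 (SE, edgeR adjusted p = 0.891). The log2 fold change was 0.077 without cKO replicate 4 and 0.0014 without WT replicate 2.

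**Figure D3:**
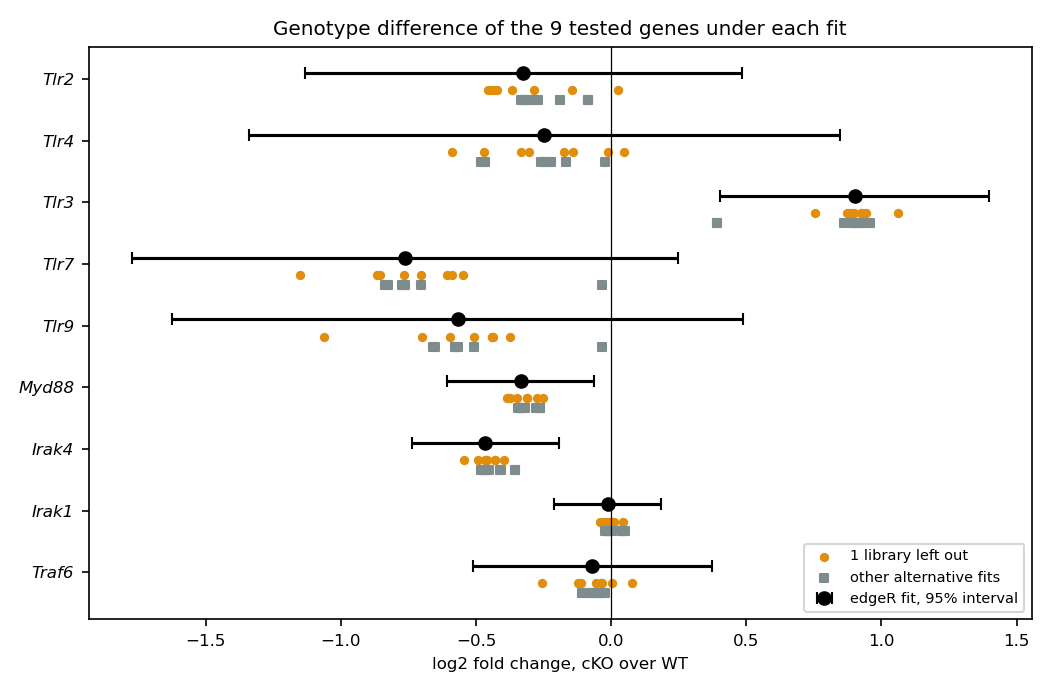
Log2 fold changes of the 9 tested genes, cKO over WT, with the edgeR estimate and its 95% confidence interval in black, fits without 1 library in orange and other alternative fits in grey. The intervals of Tlr3 (0.40 to 1.40), Irak4 (-0.74 to -0.19) and Myd88 (-0.61 to -0.06) do not include 0, and those of Tlr7 (-1.77 to 0.25) and Tlr9 (-1.63 to 0.49) reach the lowest values.

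Of 97 further genes of the pathway in 10 lists, 96 were in the table and 81 were tested, and edgeR called none of them. An unadjusted p below 0.05 was found for 15 of the 81, or 18.5%, where 18.6% of all tested genes had one. In TMM-scaled CPM, groups did not overlap for 9 of the 81, or 11.1%, which is also the share over all tested genes. DESeq2 called 7 of the 81, close to the 8.63% it called over all genes, and limma-voom called none of the 81. Those 7 were Cd14, Cd36, Ctsl, Cxcl2, Il1a, Lgmn and Socs1. Over all tested genes the median log2 fold change was 0.01, with 48.1% of values negative. The 81 pathway genes had a median of -0.12, with 30 positive and 51 negative values. That median is given as a description only: 6 of the 81 met the count cut-off in more WT than cKO libraries, and none in more cKO than WT libraries. Beside it, 5 of 5 tested neutrophil markers (median -0.97) and 9 of 10 macrophage and monocyte markers (median -0.25) had negative log2 fold changes. Langerhans cell markers (6 positive, 1 negative, median 0.44) and tested dendritic cell markers (3 positive, 1 negative, median 0.34) leaned the other way. T cell markers were mixed (2 positive, 3 negative). The part of any of these lists in the pathway values was not tested. The lists were chosen with earlier results of these data known.

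Beside the receptors, Tlr5 (log2 fold change -0.20 ± 0.37 SE) and Tlr13 (-0.08 ± 0.37) were the 2 of 6 other Toll-like receptors with enough counts. Of 5 tested co-receptors, none was called by edgeR. Cd14, which hands lipopolysaccharide to Tlr4, had 4.37, 2.44, 2.15 and 3.12 CPM in cKO libraries 1 to 4 and 5.40, 9.15, 4.53 and 7.65 CPM in WT libraries 1 to 4, without overlap (-1.15 ± 0.30, edgeR adjusted p = 0.0874, DESeq2 adjusted p = 0.00652). Cd36, a lipid scavenger receptor, had 31.5 ± 11.8 CPM for cKO and 10.2 ± 4.97 CPM for WT (1.63 ± 0.41, adjusted p = 0.0795), and it was called by DESeq2 (adjusted p = 0.00148) and by edgeR without cKO replicate 4 (adjusted p = 0.0472). Ly96, the partner of Tlr4, was at -0.30 ± 0.14 (adjusted p = 0.292).

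Among 11 tested genes for the trafficking and cleavage of endosomal receptors, the asparagine endopeptidase gene Lgmn was nearest to the threshold. It had 22.5, 19.4, 22.6 and 19.1 CPM in cKO libraries 1 to 4 and 31.5, 30.9, 28.3 and 27.6 CPM in WT libraries 1 to 4, without overlap (log2 fold change -0.50 ± 0.10 SE, edgeR adjusted p = 0.0510). It was called by DESeq2 (adjusted p = 0.000451) and by edgeR without the low-count filter (adjusted p = 0.0493). Ctsl, a lysosomal cathepsin, stood at 641 ± 143 CPM for cKO and 340 ± 145 CPM for WT (0.91 ± 0.31, edgeR adjusted p = 0.162, DESeq2 adjusted p = 0.0427). The chaperone gene Hsp90b1 was at 0.10 ± 0.17 (adjusted p = 0.810). Unc93b1, which carries Tlr3, Tlr7 and Tlr9 to endosomes, stood at 4.23 ± 1.43 CPM for cKO and 6.10 ± 0.324 CPM for WT (adjusted p = 0.295).

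None of the 3 tested adaptors, 14 kinases, 12 ubiquitin enzymes or 7 transcription factors was called by edgeR. Ticam1, through which Tlr3 signals, stood at 10.8 ± 1.497 CPM for cKO and 13.9 ± 2.05 CPM for WT (log2 fold change -0.36 ± 0.15 SE, adjusted p = 0.247). Tirap, a bridge from Tlr2 and Tlr4 to Myd88, was at -0.62 ± 0.37 and Pik3ap1, a phosphoinositide kinase adaptor, at -1.28 ± 0.50 (adjusted p = 0.212). Map3k7, the kinase that Traf6 activates, stood at 82.2 ± 2.63 CPM for cKO and 82.6 ± 6.21 CPM for WT, and Tbk1, the kinase on the Ticam1 route, was at -0.02 ± 0.11. Ikbkg, the regulatory subunit of the IκB kinase, was at 0.22 ± 0.08 (adjusted p = 0.192) and Ikbke at 0.45 ± 0.21. Cyld, a deubiquitinase that restrains NF-κB, was at 0.37 ± 0.13 (adjusted p = 0.188) and Rbck1, of the linear ubiquitin ligase, at 0.25 ± 0.09 (adjusted p = 0.185). Ube2n and Ube2v1, the conjugating enzyme pair of Traf6, were at 0.16 ± 0.10 and -0.06 ± 0.10. The factors Irf3 (-0.17 ± 0.12), Nfkbiz (-0.37 ± 0.43) and Creb1 (-0.12 ± 0.08) did not pass. In TMM-scaled CPM, the genotypes did not overlap for Ikbkg, Cyld, Rbck1 and Creb1, nor for Unc93b1 and Cnpy4 among the trafficking genes. For Unc93b1 this depended on the scaling. Its cKO library 1 lay just below WT library 2 in CPM (5.721 against 5.723) and above it in FPKM (2.57 against 2.50).

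Of 9 tested brakes on the pathway, none was called by edgeR. Socs1, a suppressor of cytokine signalling, had 1.72, 2.94, 2.39 and 2.50 CPM in cKO libraries 1 to 4 and 4.72, 3.35, 12.2 and 11.6 CPM in WT libraries 1 to 4, without overlap (log2 fold change -1.74 ± 0.42 SE, edgeR adjusted p = 0.0726, DESeq2 adjusted p = 0.00124). Zc3h12a, an RNase that degrades cytokine mRNA, was at -0.73 ± 0.40 and Tollip, an inhibitor of Irak1, at -0.14 ± 0.14. In the IL-1 receptor family, Il1rl2, the IL-36 receptor, stood at 118 ± 47.6 CPM for cKO and 162 ± 8.12 CPM for WT (-0.46 ± 0.25, adjusted p = 0.355). The decoy receptor gene Il1r2 was at 0.18 ± 0.68, and Il18rap, an IL-18 receptor chain, at -1.85 ± 0.86 (adjusted p = 0.289).

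Of 12 tested output genes of Myd88 signalling, none was called by edgeR, and their median log2 fold change was -0.76, a description only. Ccl3, Saa3, Cxcl1 and Cxcl2, 4 of the 12, met the count cut-off in more WT than cKO libraries. Cxcl2, a neutrophil chemokine, averaged 0.943 CPM for cKO and 4.65 CPM for WT (log2 fold change -2.29, edgeR adjusted p = 0.209, DESeq2 adjusted p = 0.0496). The 2 IL-1 cytokines stood on opposite sides. Il1a had 47.9, 43.5, 28.8 and 81.3 CPM in cKO libraries 1 to 4 and 13.6, 22.3, 34.1 and 14.3 CPM in WT libraries 1 to 4, with cKO library 3 inside the WT range (log2 fold change 1.26 ± 0.37 SE, edgeR adjusted p = 0.117, DESeq2 adjusted p = 0.0115). Il1b was at 2.75 ± 1.04 CPM for cKO and 6.66 ± 4.83 CPM for WT (-1.28 ± 0.49, adjusted p = 0.206). Il36g, an IL-36 cytokine of keratinocytes, was at 0.34 ± 0.18 (adjusted p = 0.359), and Lcn2, the antimicrobial lipocalin, at -0.79 ± 0.68 (adjusted p = 0.574). Ptgs2, the inducible cyclooxygenase, did not pass with all libraries and was called without cKO replicate 4 (log2 fold change -1.78, adjusted p = 0.0195), a gene named after its values were seen.

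**Figure D4:**
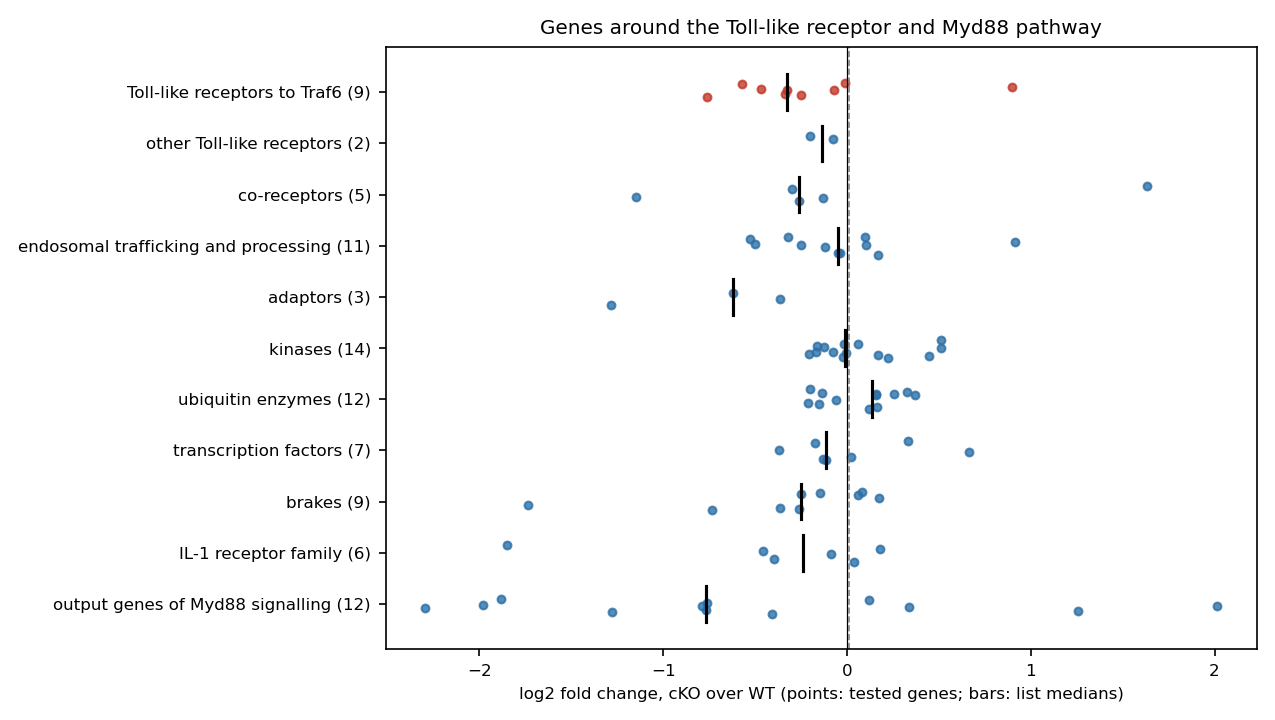
Log2 fold changes, cKO over WT, of each tested gene in the list of receptors to Traf6 (red) and in 10 lists of other pathway genes (blue), with list medians as bars, tested genes in parentheses and the median of all tested genes (0.01) as a dashed line. Kinases (median -0.01) and ubiquitin enzymes (0.14) lie close to 0, and output genes (-0.76) spread over both sides.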

How the data were processed

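RNA of imiquimod-treated epidermis was sequenced from 4 cKO and 4 WT libraries, grouped by title. Per the labels, total RNA was extracted with TRIzol and the VAHTS Universal V6 kit was used for the libraries. The authors deposited raw read counts per gene symbol, made with HISAT2 and HTSeq per the submitters' processing notes. The sources used here do not give versions, build, annotation or strand setting. The deposited FPKM values match the counts divided by gene length and library total for 20863 of 20863 genes with counts in at least 2 libraries (relative tolerance 1e-04), so they are no separate evidence.

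Counts were filtered with filterByExpr (14004 of 23171 genes kept), scaled with TMM factors (0.934 to 1.08) and tested with the quasi-likelihood test of edgeR 4.0.16 in R 4.3.3, cKO over WT, with no covariate. Benjamini-Hochberg adjustment ran over every tested gene, with a threshold of 0.05. Standard errors and 95% intervals are those implied by the F statistic. Single genes also had a two-sided exact permutation test of log2(CPM + 0.1) over 70 splits. The script was tested on simulated data. Alternatives were DESeq2 1.42.0, limma-voom (limma 3.58.1), RLE or library-size scaling, other filters, limma on log2 FPKM, the replicate number as a block and leaving out each library. No 2 libraries of a genotype agreed within sampling noise (lowest chi-square per degree of freedom 47.9).

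The genes and lists were chosen with earlier results of these data known. Named pathway genes are, per list, called genes or else the 2 with the smallest p, and the 2 with the highest FPKM. Genes most alike were the 3 nearest with a mean of at least 1 CPM for Tlr7, Tlr2 and Myd88. Genes named outside this rule are marked in the text or are markers, paralogs or overlapping neighbours.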

Additional observations from a re-analysis of the deposited data

Results flagged for a closer look

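Tlr9 in cKO replicate 1, at 0.364 CPM or 14 counts, stood apart from the other 3 cKO libraries, which had 4 to 6 counts. Its gap to the nearest was 0.870 of the range of the group, above Dixon's 95% critical value for 4 samples. This was 1 of 20 groups examined (10 genes in 2 genotypes), and chance flags about 1 in 20.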

How the results depend on the processing

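At 4 to 18 counts a library for Tlr7, 4 to 14 for Tlr9 and 2 to 13 for Tlr1, depth limits what can be said of these receptors. Tlr3, Tlr7, Tlr9, Myd88 and Irak4 kept their direction in every alternative that tested them. For Tlr3 and Irak4, whose genotypes did not overlap, a turn of sign was hardly possible. Tlr7 and Tlr9 were tested in 15 of the 18 alternatives. They reached the filter mainly through WT libraries, which favours a negative sign, so their constant direction is a description only. No gene of the list was called by edgeR, against 2 with DESeq2 (Tlr3 and Irak4) and 0 to 1 when single libraries were left out. Of the wider pathway genes 0 were called, against 7 with DESeq2, 1 without the low-count filter and 0 to 2 when single libraries were left out. Over all genes the count of 185 became 1208 with DESeq2, 349 without the low-count filter, 19 on log2(FPKM + 1) without a filter and 8 to 506 when single libraries were left out (leaving out cKO replicate 1 gave 20, cKO replicate 2 gave 506, cKO replicate 3 gave 66, and WT replicates 1 to 4 gave 34, 36, 8 and 23). The causes were not tested.

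The sign of Irak1 turned with library-size scaling (0.050), with a filter of 1 CPM in 4 libraries (0.0028), and on log2(FPKM + 1) with and without a filter (0.041 each) and log2(FPKM + 0.1) (0.044). Leaving out single libraries gave -0.043 to 0.042 for Irak1, -0.26 to 0.077 for Traf6, -0.45 to 0.026 for Tlr2 and -0.59 to 0.049 for Tlr4. Library-size scaling moved the median of all genes to 0.07.

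Same-numbered libraries had correlated deviations of -0.10, 0.13, 0.10 and 0.19, so the numbers were not taken as pairs. With the replicate block 216 genes were called, none of them in the list (Tlr3 adjusted p = 0.108, Irak4 0.117). Not every library correlated best with its own number.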
